A study of Mus musculus with 3 samples.

Results

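A set of 10 mouse genes for G protein-coupled receptors was examined, chosen by gene name from a table of 55487 genes. They encode receptors for fatty acids (Ffar2, Ffar4 and Gpr84), hydroxycarboxylic acids (Hcar2), tryptophan and other metabolites (Gpr35), an oxysterol (Gpr183), succinate (Sucnr1), bile acids (Gpbar1) and prostaglandin E2 (Ptger2 and Ptger4). Each name matched 1 row of the table. The cells were bone marrow derived dendritic cells (BMDCs), which are antigen-presenting cells grown from marrow progenitors, and they were wild type in all 3 groups. The groups were untreated cells, cells given P. vulgatus (Phocaeicola vulgatus, frequent in the gut) and cells given YB328 (another gut bacterium, by its strain name), and each group had 1 library of RNA sequencing. The sources used here do not state the strain, age or sex of the mice, how the marrow was cultured, how much of each bacterium was added, for how long, or in what state. With 1 library per group there was no test and no p-value, and every comparison below sets 1 culture against another without a replicate check.

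Receptors of this kind sit in the cell membrane and pass a signal from a small molecule outside the cell to G proteins inside it. The prostaglandin E2 receptors EP2 (Ptger2) and EP4 (Ptger4) couple to Gs and raise cyclic AMP, and the bile acid receptor Gpbar1 does the same. Hcar2, Gpr84, Gpr183 and Sucnr1 couple to Gi, which lowers cyclic AMP, while Ffar2 couples to Gi and Gq and Ffar4 mainly to Gq. In dendritic cells, prostaglandin E2 is known to promote migration and to shape cytokine output, and Gpr183 is known to position cells along oxysterol gradients in lymphoid tissue. Several ligands of the other receptors, among them short-chain fatty acids and secondary bile acids, are made by gut bacteria.

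The total count was 15538133 for untreated cells, 26660870 for P. vulgatus and 26924006 for YB328. Nuclear protein-coding genes other than Lars2 made up 57.9% of the untreated counts, against 95.3% (P. vulgatus) and 96.6% (YB328). Genes of the mitochondrial genome that encode proteins made up 12.8%, 0.748% and 0.577%. Ribosomal RNA genes outside the mitochondrial genome made up 9.54%, 0.789% and 0.386%. This difference in RNA makeup stands beside each comparison with the untreated library. Of 15 dendritic cell markers, 13 reached 5 CPM (counts scaled to library size) in the untreated library and 12 did so in each of the others, and their summed level was 10844, 19086 and 18620 CPM. Of the 13 compared, 3 rose with each bacterium (Ccr7, Irf8 and Fscn1), while 4 fell with P. vulgatus and 3 with YB328. Of all genes compared, 24.7% rose and 19.2% fell with P. vulgatus, and 24.2% and 18.7% with YB328. These shares stand beside all marker counts given here. The neutrophil list lies far from them. Of the 10 neutrophil markers compared, 10 fell with P. vulgatus and 9 with YB328. No other marker list is read as set apart from these shares. Itgax, which encodes CD11c, fell from 273 to 22.5 and 75.4 CPM and Mgl2 from 497 to 26.9 and 36.1 CPM, whereas the class II gene H2-Ab1 stood at 2231, 2694 and 2181 CPM. Clec9a had 1 count untreated and 0 counts in both bacterial libraries, too low to judge in any of them. Cd209a had 142 counts untreated, 53 with P. vulgatus and 0 with YB328. Of 14 neutrophil markers none was at 0 counts, and their summed level was 4606 CPM untreated, 413 CPM for P. vulgatus and 565 CPM for YB328. Among them Mmp8 stood at 128, 58.4 and 249 CPM. Summed macrophage markers stood at 921, 3854 and 3346 CPM, none of the 12 at 0, and 5 of them rose and 1 fell with each bacterium. Summed monocyte markers were at 264, 229 and 281 CPM, those of mast cells, basophils and eosinophils at 148, 382 and 348 CPM, and those of stroma and endothelium at 569.8, 131 and 175.0 CPM. Of 9 stroma and endothelium markers compared, 4 rose and 4 fell with P. vulgatus and 3 rose and 4 fell with YB328, Col1a2 falling from 282 to 3.10 and 4.54 CPM and Kdr rising from 0.194 to 65.4 and 104 CPM. Of 6 B cell markers 1 reached 5 CPM (summed 9.53, 28.9 and 8.68 CPM), and of 8 T and NK cell markers 0 did (2.40, 4.27 and 3.37 CPM).

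**Figure D1:**
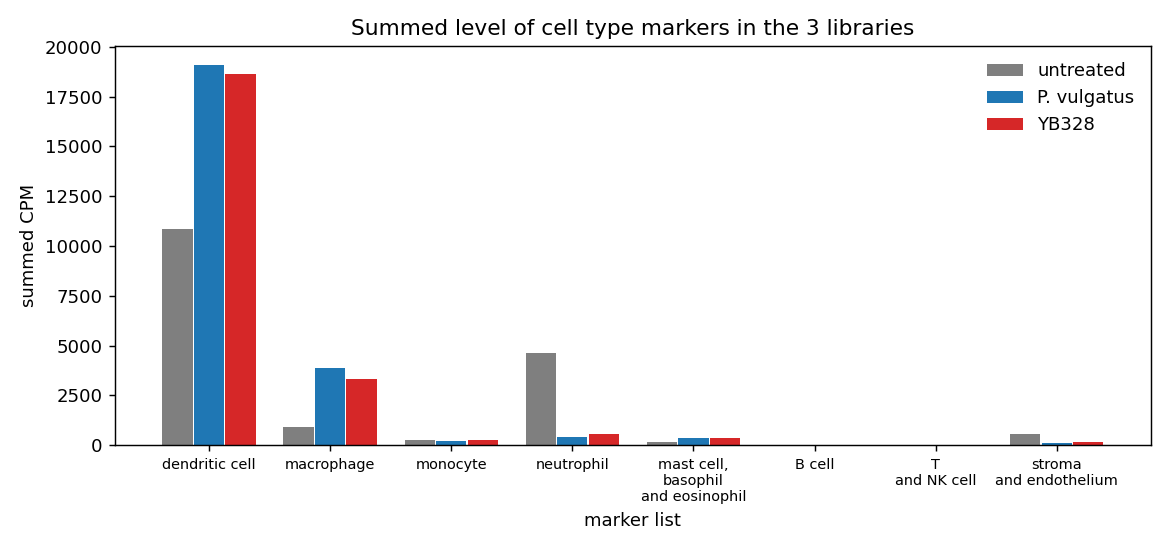
Summed CPM of the markers of 8 cell type lists (vertical axis, linear from 0) for untreated cells, P. vulgatus and YB328, 1 bar per library. The neutrophil sum was 4606 CPM for untreated cells and 413 and 565 CPM after the bacteria, while the dendritic cell sum was the highest in all 3.

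Levels within a library are given as the deposited TPM, which corrects for gene length, and differences between libraries as ratios of CPM, which were scaled between libraries by trimmed mean of M values. "Rose" and "fell" are used only where the higher of the 2 libraries reached 5 CPM, the ratio was at least 2 after adding 0.5 CPM, and the exact 95% interval of the ratio excluded 1. These intervals describe counting error alone. The reads carry no molecular identifiers, so copies of 1 molecule made by PCR are counted separately.

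Ffar2 and Ffar4 fell with both bacteria, Gpr35 and Ptger2 rose with both, and Hcar2 rose with P. vulgatus alone by this rule. Gpr84, Gpr183 and Ptger4 did not pass in any comparison, and Sucnr1 and Gpbar1 were too low to judge. Against the untreated library, 2 of the 8 receptors compared rose and 2 fell with YB328, where 24.2% of all 10519 genes compared rose and 18.7% fell. With P. vulgatus 3 of 8 rose and 2 fell, where 24.7% of 10509 genes rose and 19.2% fell. Between the bacterial libraries 0 of 6 were higher and 1 (Hcar2) was lower with YB328, where 2.89% of 9764 genes were higher and 2.69% lower. Of all genes called against untreated, 56.3% were higher with YB328 and 56.2% with P. vulgatus, and with the deposited TPM these shares were 74.5% and 69.7%. With so few receptors compared, these counts are not read as setting them apart from other genes, and the results below are about the single receptors. The median log2 ratio of the receptors compared was 0.46 with YB328 and 0.11 with P. vulgatus, each over 8 receptors, beside 0.15 and 0.13 for all genes. It was -0.28 for the 6 receptors compared between the bacteria, beside 0.00049 for all genes.

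**Figure D2:**
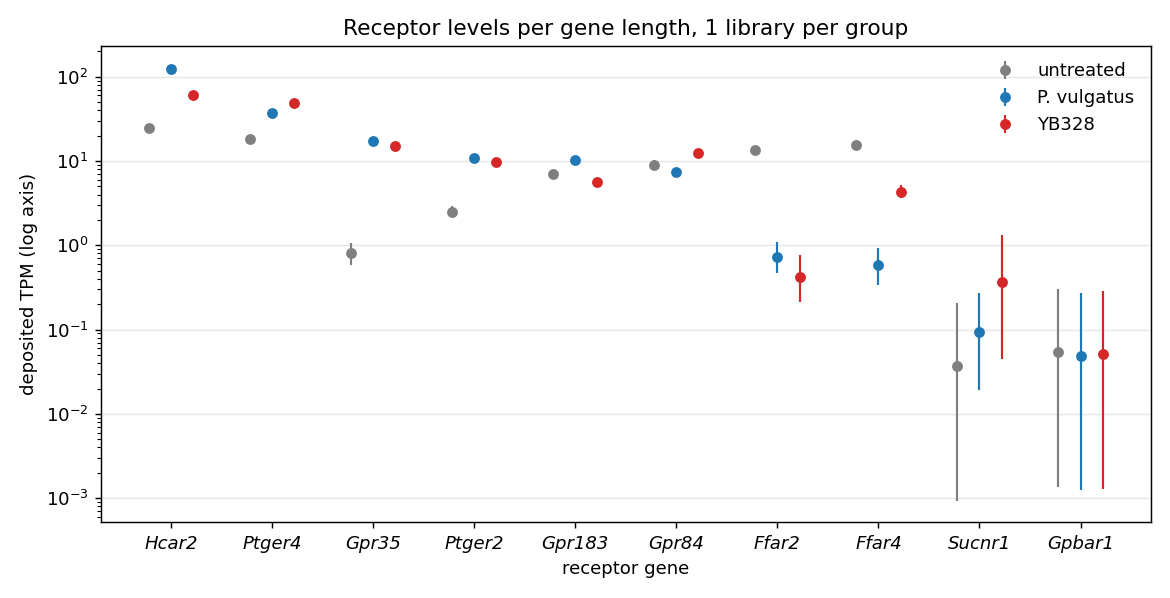
Deposited TPM (log axis) of each of the 10 receptor genes for untreated cells, P. vulgatus and YB328, 1 point per library with an exact 95% Poisson interval that covers counting error only. Ffar2 and Ffar4 are near 15 TPM untreated and under 5 TPM with either bacterium, Gpr35 is at 0.802 TPM untreated and above 15 TPM with either, and Sucnr1 and Gpbar1 rest on 1 to 3 counts.

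In the untreated library the order of levels was Hcar2 (24.3 TPM), Ptger4 (18.1 TPM), Ffar4 (15.5 TPM), Ffar2 (13.7 TPM), Gpr84 (8.93 TPM), Gpr183 (7.06 TPM), Ptger2 (2.52 TPM) and Gpr35 (0.802 TPM). The counting intervals of Ffar4 (14.0 to 17.1 TPM) and Ffar2 (12.4 to 15.0 TPM) overlapped, as did those of Gpr84 and Gpr183 by a narrow margin (7.83 to 10.1 and 6.34 to 7.84 TPM). With P. vulgatus the order was Hcar2 (125 TPM), Ptger4 (36.8 TPM), Gpr35 (17.4 TPM), Ptger2 (10.9 TPM), Gpr183 (10.2 TPM), Gpr84 (7.37 TPM), Ffar2 (0.731 TPM) and Ffar4 (0.581 TPM), with overlapping intervals for Ptger2 and Gpr183 and for Ffar2 and Ffar4. With YB328 it was Hcar2 (60.3 TPM), Ptger4 (48.7 TPM), Gpr35 (15.2 TPM), Gpr84 (12.6 TPM), Ptger2 (9.725 TPM), Gpr183 (5.64 TPM), Ffar4 (4.33 TPM) and Ffar2 (0.426 TPM), where the interval of Gpr183 (5.06 to 6.27 TPM) overlapped that of Ffar4 (3.60 to 5.17 TPM). Hcar2 and Ptger4 held the first and second place in all 3 libraries. Gpr35 moved from the lowest of the 8 judged receptors to the third place, and the receptors of short-chain and long-chain fatty acids moved to the end. Hcar2 made up 26.7% of the summed TPM of the 10 receptors in untreated cells, 59.8% after P. vulgatus and 38.3% after YB328.

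Among the fatty acid receptors, Ffar2 and Ffar4 were lower in both bacterial libraries. Ffar2 (ENSMUSG00000051314.11, GRCm38 chromosome 7, 30818348 to 30823775, minus strand; coordinates of the other receptors are on the same build) encodes the receptor for acetate, propionate and butyrate, and is known in neutrophils as well as in other myeloid cells. It had 452 counts (29.3 CPM) untreated, 24 counts (0.907 CPM) with P. vulgatus and 11 counts (0.403 CPM) with YB328. The untreated library was high and both bacterial libraries were low. Ffar2 fell 32.3-fold with P. vulgatus (95% interval 21.4 to 51.0) and 72.7-fold with YB328 (95% interval 40.3 to 147). With the deposited TPM these falls were smaller, 18.7-fold and 32.1-fold, both outside those intervals. Of the 10 neutrophil markers compared, 10 fell with P. vulgatus and 9 with YB328, beside 19.2% and 18.7% of all genes compared. S100a9 fell from 1873 to 69.7 and 90.5 CPM and Cxcr2 from 23.4 to 4.57 and 3.41 CPM. Mmp8, at 128 CPM untreated, fell to 58.4 CPM with P. vulgatus but stood at 249 CPM with YB328 and did not fall there. The part of neutrophils in the lower Ffar2 was not tested, and in bulk RNA fewer cells of a type and less RNA per cell cannot be told apart. Between the bacterial libraries Ffar2 was under 5 CPM in both and was not compared.

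Ffar4 (ENSMUSG00000054200.7, chromosome 19, 38097071 to 38114263, plus strand) encodes the receptor for long-chain unsaturated fatty acids, omega-3 fatty acids among them. It had 384 counts (24.9 CPM) untreated, 17 counts (0.642 CPM) with P. vulgatus and 123 counts (4.50 CPM) with YB328. The P. vulgatus library was lowest and the YB328 library lay between it and the untreated one. Ffar4 fell 38.7-fold with P. vulgatus (95% interval 23.9 to 67.2) and 5.53-fold with YB328 (95% interval 4.50 to 6.83). With the deposited TPM the falls of Ffar4 were 26.7-fold and 3.57-fold, the latter outside its interval. Its level with YB328 was 7.01 times that with P. vulgatus (95% interval 4.21 to 12.4), but at 4.50 CPM it stayed just under the 5 CPM that a call required. Without a minimum, or with 5 CPM asked of any of the 3 libraries, an alternative chosen after seeing the data, this difference passed. Within a library, the TPM of Ffar2 was 0.884 times that of Ffar4 untreated (95% interval 0.769 to 1.01), 1.26 times with P. vulgatus (0.648 to 2.50) and 0.0983 times with YB328 (0.0478 to 0.182). This ratio needs no scaling between libraries, and it set the YB328 library apart from the others.

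Gpr84 (ENSMUSG00000063234.5, chromosome 15, 103308235 to 103310612, minus strand) encodes a receptor that responds to medium-chain fatty acids in cell assays. It had 236 counts (15.3 CPM) untreated, 287 (10.9 CPM) with P. vulgatus and 479 (17.5 CPM) for YB328. The P. vulgatus library was lowest and the YB328 library highest, but Gpr84 did not pass in any comparison. Its ratio to untreated was 0.710 with P. vulgatus (95% interval 0.595 to 0.846) and 1.15 with YB328 (95% interval 0.979 to 1.35). The level with YB328 was 1.62 times that with P. vulgatus (95% interval 1.39 to 1.88). The library kit does not mark strand, and 681 exonic bases of Gpr84 are shared with Gm49482 on the other strand, which had 0, 19.5 and 61.8 counts. With those counts added, an alternative chosen after seeing the data, the levels were 15.3, 11.6 and 19.8 CPM, and again no difference passed.

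Hcar2 (ENSMUSG00000045502.6, chromosome 5, 123863570 to 123865499, minus strand) encodes the receptor for niacin, the ketone body beta-hydroxybutyrate and butyrate. It had 763 counts (49.4 CPM) untreated, 5642 (213 CPM) with P. vulgatus and 2655 (97.2 CPM) for YB328. The P. vulgatus library was highest and the untreated one lowest. Hcar2 rose 4.31-fold with P. vulgatus (95% interval 3.996 to 4.66). With YB328 the ratio was 1.97 (95% interval 1.81 to 2.13), and its log2 ratio of 0.97 lay just under the threshold of 1. With the deposited TPM, which moved the median of all genes from 0.15 to 0.61, the log2 ratio was 1.29 and passed. Hcar2 was 2.19-fold lower with YB328 than with P. vulgatus (95% interval 2.09 to 2.30), and it was the only one of the 10 receptors that passed between the bacterial libraries. Against Ptger4 in the same library, the TPM of Hcar2 was 1.34 times as high untreated (95% interval 1.22 to 1.47), 3.40 times with P. vulgatus (3.25 to 3.56) and 1.24 times with YB328 (1.18 to 1.30). Macrophage markers, at 921, 3854 and 3346 summed CPM, were also higher in both bacterial libraries, with Cd14 at 109, 2163 and 999.7 CPM, and their part in the higher Hcar2 was not tested.

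Gpr35 (ENSMUSG00000026271.15, chromosome 1, 92950865 to 92986391, plus strand) encodes a receptor for which kynurenic acid, a product of tryptophan breakdown, is among several proposed ligands. It showed the largest rise of the 10 receptors. It had 48 counts (3.11 CPM) untreated, 1202 (45.4 CPM) with P. vulgatus and 1022 (37.4 CPM) for YB328. The untreated library was low, and both bacterial libraries were high and close to each other. Gpr35 rose 14.6-fold with P. vulgatus (95% interval 10.9 to 19.9) and 12.03-fold with YB328 (95% interval 9.01 to 16.4). Between the bacterial libraries the ratio was 0.824 (95% interval 0.757 to 0.897), short of the threshold. Its log2 ratio stayed at or above 2.95 with YB328 and 3.21 with P. vulgatus under all 12 alternatives.

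**Figure D3:**
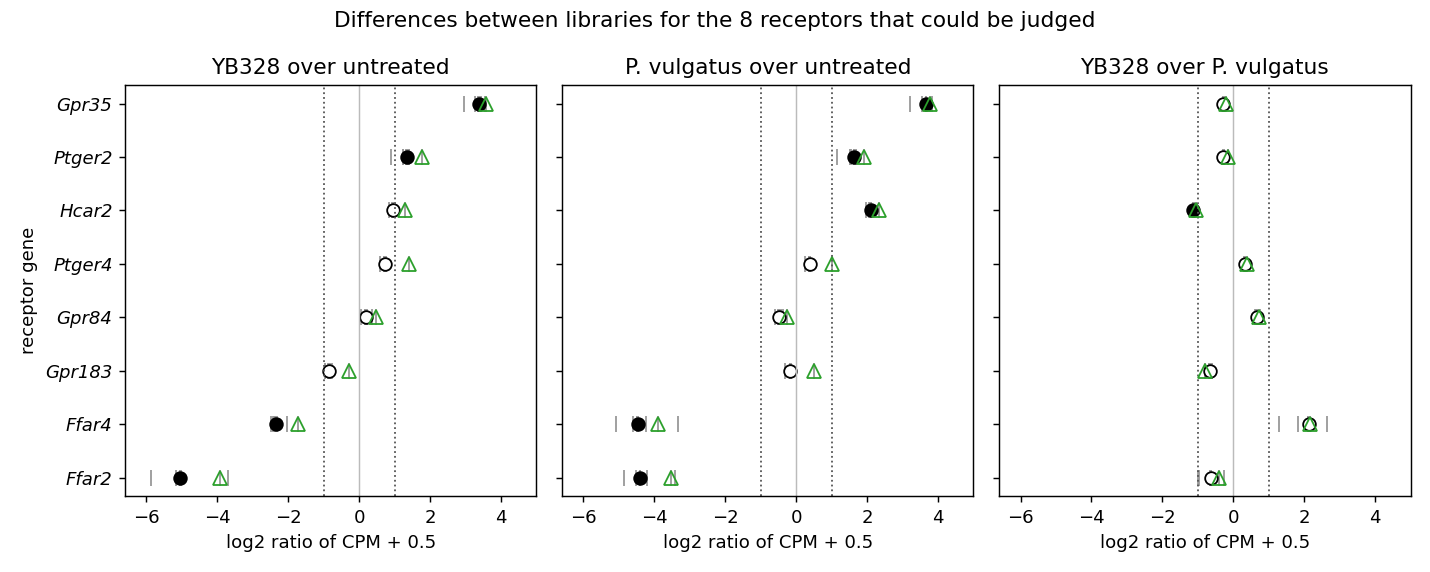
Log2 ratios of CPM + 0.5 (horizontal axis) for the 8 receptors that could be judged, in YB328 over untreated, P. vulgatus over untreated and YB328 over P. vulgatus. Circles are the values in the text, filled where the receptor rose or fell, grey ticks the 12 alternatives, green triangles the deposited TPM and dotted lines the threshold of 1. Gpr35 lies far to the right in both comparisons with the untreated library, Ffar2 and Ffar4 far to the left, and in the third panel Hcar2 alone is filled while Ffar4, at 2.13, is open because its level was under 5 CPM.

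Promoter windows of the receptors with the largest rise and the largest falls are shown, as RefSeq gives them on GRCm38.p6, from 250 bases before the start site to 50 bases from it. Windows were found for 9 of the 10 receptors, 13 in all, since a gene can have several start sites. They were searched on both strands for 4 motifs, which do not overlap here: AP-1 (TGANTCA), the cyclic AMP response element (TGACGTCA), an NF-kB site (GGGA, any base, then TTTCC) and an interferon response element (GAAA, any pair of bases, then GAAA). Capitals mark the matches. The second start site of Gpr35 (chr1:92978653-92978952, plus strand) has the AP-1 letters with their first base at position -184 from the start, and the first start site of Ffar2 (chr7:30823726-30824025, minus strand) has them at position -52. The window of Ffar4 (chr19:38096829-38097128, plus strand) holds none of the 4. For Gpr35 and Ffar2 only the window with a match is printed. Start site 1 of Gpr35 and start sites 2 to 4 of Ffar2 held none of the 4 motifs.
Gpr35, second start site: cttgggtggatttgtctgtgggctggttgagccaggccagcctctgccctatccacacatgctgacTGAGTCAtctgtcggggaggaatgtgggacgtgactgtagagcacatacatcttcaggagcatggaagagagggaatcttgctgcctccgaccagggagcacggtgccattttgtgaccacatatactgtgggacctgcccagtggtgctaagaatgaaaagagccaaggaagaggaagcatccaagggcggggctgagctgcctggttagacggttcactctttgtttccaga
Ffar2, first start site: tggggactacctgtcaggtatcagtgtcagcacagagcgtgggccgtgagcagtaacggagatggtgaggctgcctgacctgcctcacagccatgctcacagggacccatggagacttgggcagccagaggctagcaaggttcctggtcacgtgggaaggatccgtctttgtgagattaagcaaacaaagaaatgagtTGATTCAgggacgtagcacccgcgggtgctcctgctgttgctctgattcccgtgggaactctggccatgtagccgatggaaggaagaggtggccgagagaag
Ffar4: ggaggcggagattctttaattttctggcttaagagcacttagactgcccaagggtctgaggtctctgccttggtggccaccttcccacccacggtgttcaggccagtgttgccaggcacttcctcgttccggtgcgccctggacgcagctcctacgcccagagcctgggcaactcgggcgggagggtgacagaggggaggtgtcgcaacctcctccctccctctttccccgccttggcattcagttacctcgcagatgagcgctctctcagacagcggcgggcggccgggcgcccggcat

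Of the 13 windows 3 held the AP-1 letters, the third being that of Sucnr1, which had 1 to 3 counts in each library, and none held the other motifs. Of all 32851 promoter windows of this length, 7.81% held the AP-1 letters, 1.79% the cyclic AMP response element, 0.411% the NF-kB letters and 3.44% the interferon response element. The AP-1 letters thus stand in 1 window of a gene that rose, 1 of a gene that fell and 1 of a gene too low to judge. A match is a description of these letters in this window and not a binding site.

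Gpr183 (ENSMUSG00000051212.8, chromosome 14, 121952551 to 121965195, minus strand), also called EBI2, encodes the receptor for dihydroxycholesterols. It had 349 counts (22.6 CPM) untreated, 529 (19.99 CPM) with P. vulgatus and 339 (12.4 CPM) for YB328. The YB328 library was lowest, and no difference passed. The ratio was 0.884 with P. vulgatus (95% interval 0.770 to 1.01) and 0.549 with YB328 (95% interval 0.471 to 0.639), and 0.621 between YB328 and P. vulgatus (95% interval 0.540 to 0.713). The sign of the P. vulgatus difference turned with the deposited TPM, from a log2 ratio of -0.17 to 0.50. The YB328 difference shrank with it, from a log2 ratio of -0.84 to -0.30, outside the counting interval. Of 4 enzymes that make or remove its ligands, Ch25h, which makes the first intermediate of the ligand, rose 2.51-fold with P. vulgatus (95% interval 1.76 to 3.65) and 3.39-fold with YB328 (95% interval 2.41 to 4.89), from 2.53 to 6.35 and 8.57 CPM. Hsd3b7, which degrades the ligand, stood at 32.4, 61.1 and 57.5 CPM and did not pass. Cyp27a1, another sterol hydroxylase, was at 7.06, 4.27 and 2.27 CPM and fell with YB328 (3.11-fold, 95% interval 2.26 to 4.32). Cyp7b1, which completes the ligand, had 6, 6 and 4 counts and was too low to judge. Ch25h and Cyp27a1 did not pass where 20 CPM was asked, and Ch25h did not pass with P. vulgatus where 2 CPM was added.

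Of the prostaglandin E2 receptors, Ptger2 rose with both bacteria and Ptger4 did not pass. Ptger2 (ENSMUSG00000037759.6, chromosome 14, 44988195 to 45003820, plus strand) had 156 counts (10.1 CPM) untreated, 861 (32.5 CPM) with P. vulgatus and 730 (26.7 CPM) for YB328. The untreated library was low and both bacterial libraries were high. Ptger2 rose 3.22-fold with P. vulgatus (95% interval 2.71 to 3.84) and 2.64-fold with YB328 (95% interval 2.22 to 3.16). Between the bacteria the ratio was 0.822 (95% interval 0.744 to 0.908), which did not pass. Part of Ptger2 overlaps Gm17173 on the other strand, which shares 246 exonic bases and had 64 counts untreated, 1.05 with P. vulgatus and 0 with YB328. With the counts of Gm17173 and of another such gene, Gm49364, added, an alternative chosen after seeing the data, the ratio was 2.28 with P. vulgatus and 1.90 with YB328, and the YB328 difference no longer passed.

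Ptger4 (ENSMUSG00000039942.15, chromosome 15, 5206661 to 5244187, minus strand) had 1229.8 counts (79.7 CPM) untreated, 2777 (105 CPM) with P. vulgatus and 3595 (132 CPM) for YB328. The order was untreated, P. vulgatus, YB328, with ratios of 1.32 (95% interval 1.23 to 1.41) and 1.65 (95% interval 1.55 to 1.76) over untreated. Both stayed short of the threshold, and both passed with the deposited TPM, at log2 ratios of 1.001 and 1.40, where the medians of all genes were 0.49 and 0.61. Ptger4 was the more abundant receptor per length in all 3 libraries. Its TPM was 7.20 times that of Ptger2 untreated (95% interval 6.09 to 8.56), 3.37 times with P. vulgatus (3.12 to 3.64) and 5.01 times with YB328 (4.63 to 5.43). With opposite-strand genes added, the untreated counts were 220.0 for Ptger2 and 1252 for Ptger4. This brings the untreated ratio down toward that with YB328, and no order of these 2 libraries is read from it. Only genes that share at least 100 exonic bases were added, which for Ptger4 was Gm15937 (22.2 counts untreated). Ttc33 shares 82 exonic bases with Ptger4, had 485, 624 and 769 counts, and was not added.

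The list counts that follow are of the genes compared, and stand beside 24.7% of all genes rising and 19.2% falling with P. vulgatus and 24.2% and 18.7% with YB328. No list is set apart from those shares here. Of 7 other prostanoid receptors only Ptger1 and Ptgir reached 5 CPM. Ptger1, which encodes EP1, fell with both bacteria, from 8.27 to 1.84 CPM (P. vulgatus) and 3.37 CPM (YB328), but passed with neither under the deposited TPM or with 20 CPM asked, nor with YB328 where 2 CPM was added. Ptgir, which encodes the prostacyclin receptor, stood at 27.3, 24.8 and 31.8 CPM and did not pass. Ptger3, which encodes EP3, had 4, 121 and 61 counts and stayed under 5 CPM, and Ptgdr and Ptgdr2, for prostaglandin D2 receptors, were at 0 counts in all 3 libraries. Of 8 genes for prostaglandin E2 supply and removal 6 were compared, and 3 rose and 1 fell with P. vulgatus and 2 rose and 1 fell with YB328. Ptgs2, the inducible cyclooxygenase, rose from 1.30 to 1152 and 405 CPM and Ptges, the inducible prostaglandin E synthase, from 1.43 to 565 and 346 CPM. Ptgs1, the constitutive cyclooxygenase, fell from 103 to 4.31 and 17.6 CPM. Abcc4, a transporter that exports prostaglandins, rose with P. vulgatus from 11.8 to 30.2 CPM and stood at 17.8 CPM with YB328.

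Among 25 other receptors for fatty acids, lactate, lysophospholipids and protons, 4 rose and 2 fell of 11 compared with P. vulgatus, and 3 rose and 2 fell of 10 with YB328, beside 24.7% and 24.2% of all genes rising. The median log2 ratio over the 11 with at least 5 CPM in a library was 0.19 and 0.66, beside 0.13 and 0.15 for all genes. The close relatives of the fatty acid and hydroxycarboxylic acid receptors were scarcely seen. Ffar3 and Hcar1 were at 0 counts in all 3 libraries and Ffar1 had 0, 2 and 0 counts. S1pr3, a sphingosine-1-phosphate receptor, rose 8.21-fold with P. vulgatus (95% interval 7.11 to 9.52) and 10.7-fold with YB328 (95% interval 9.29 to 12.4). Gpr18 rose with P. vulgatus from 5 to 259 counts, a 30.2-fold rise (95% interval 12.8 to 93.8), and had 94 counts with YB328, at 3.44 CPM too low to pass. Lpar3, a lysophosphatidic acid receptor, fell from 104 counts to 0 with P. vulgatus and to 51 with YB328. Lpar6, for another such receptor, stood at 45.3 CPM untreated, fell to 12.7 CPM with P. vulgatus and was at 37.9 CPM for YB328. With the deposited TPM, Lpar3 passed with neither bacterium and Lpar6 did not pass with P. vulgatus.

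Of 11 receptors for leukotrienes and chemoattractants 8 were compared, of which 3 rose and 2 fell with P. vulgatus and 4 rose and 1 fell with YB328, beside 24.7% and 19.2% and 24.2% and 18.7% of all genes. Their median log2 ratio was 0.37 and 0.87, beside 0.13 and 0.15 for all genes. C3ar1, for the complement C3a receptor, rose from 6.03 to 149 CPM (P. vulgatus) and 317 CPM (YB328), and was 2.12-fold higher with YB328 than with P. vulgatus. Fpr1, for a receptor of bacterial formyl peptides, rose from 25.1 to 149 and 81.8 CPM, and Ptafr, for the platelet-activating factor receptor, from 15.6 to 43.5 and 73.5 CPM. Cysltr1, for a cysteinyl leukotriene receptor, fell from 21.97 to 4.19 and 5.64 CPM, and with the deposited TPM the fall with YB328 did not pass.

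Downstream of the receptors, 20 of 30 genes of Gs and cyclic AMP signalling were compared, of which 5 rose and 5 fell with P. vulgatus and 4 rose and 4 fell with YB328. These shares are near those of all genes, 24.7% and 19.2% with P. vulgatus and 24.2% and 18.7% with YB328. The median log2 ratio was -0.02 and -0.01, beside 0.13 and 0.15. Of 4 genes for regulatory subunits of protein kinase A, Prkar2b rose from 19.4 to 142 and 140 CPM, Prkar2a fell from 93.6 to 17.4 and 29.8 CPM, Prkar1a stood at 252, 413 and 410 CPM and did not pass, and Prkar1b was under 1 CPM. Pde4b, a phosphodiesterase that degrades cyclic AMP, rose from 114 to 389 and 350 CPM, and the adenylyl cyclase gene Adcy9 fell from 8.23 to 1.81 and 0.769 CPM, but did not pass with the deposited TPM. Gnas, which encodes Gs, stood at 253, 358 and 381 CPM and did not pass.

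Of 20 genes for Gi, Gq and G12 subunits, 3 rose and 4 fell of 15 compared with P. vulgatus and 5 rose and 4 fell of 16 with YB328, beside 24.7% and 19.2% and 24.2% and 18.7% of all genes. The median log2 ratio was 0.25 with each, beside 0.13 and 0.15. Gna12 rose from 9.79 to 66.1 and 48.1 CPM, while Gna15, which couples many receptors to phospholipase C, fell from 42.9 to 8.01 and 8.02 CPM. Gnb5 rose with YB328 from 0.648 to 5.05 CPM, at the limit of the rule, and stood at 4.68 CPM with P. vulgatus. The call of Gnb5 was lost with median-of-ratios factors, with scaling on nuclear protein-coding genes, with TPM and with thinning. Gng2 fell from 59.5 to 20.3 and 14.4 CPM, but did not pass with the deposited TPM. Of 16 arrestins, receptor kinases and RGS proteins, which end receptor signalling, 14 were compared, of which 1 rose and 6 fell with P. vulgatus and 1 rose and 1 fell with YB328, beside 24.7% and 19.2% and 24.2% and 18.7% of all genes. The median log2 ratio was -0.56 and -0.36, beside 0.13 and 0.15. Rgs1 rose from 91.4 to 271 and 249.8 CPM and Rgs18 fell from 17.5 to 1.70 and 0.989 CPM. The receptor kinase gene Grk3 and Rgs3 fell with P. vulgatus, from 96.3 to 34.4 CPM and from 28.6 to 11.2 CPM, and stood at 58.0 and 15.8 CPM with YB328. Neither fall passed with the deposited TPM. With 20 CPM asked, Lpar3, Gpr18, Adcy9, Gnb5 and Rgs18 were not compared.

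**Figure D4:**
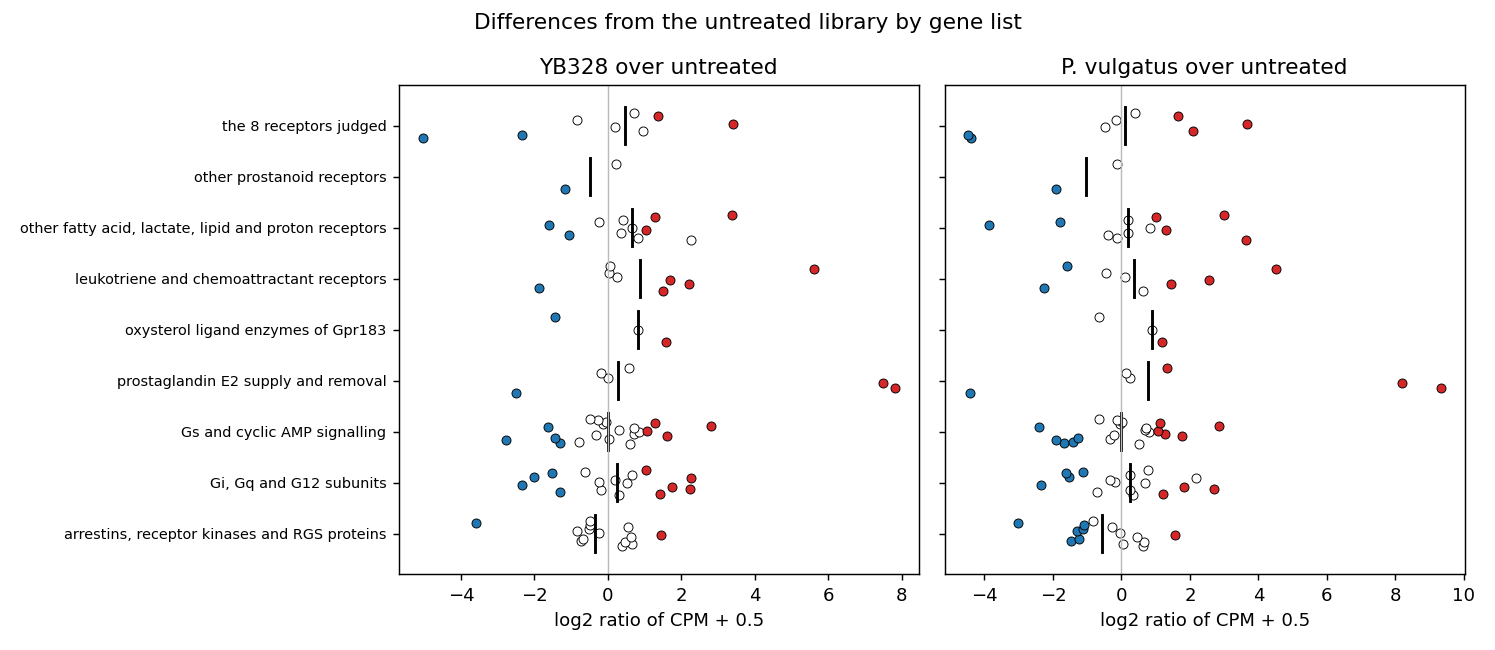
Log2 ratios of CPM + 0.5 (horizontal axis) to the untreated library for the 8 judged receptors and for the genes of 8 pathway lists that reached 5 CPM in a library, 1 point per gene, red where it rose, blue where it fell and white otherwise, with the median of each list as a bar. Red and blue points are mixed in most lists, and Ptgs2 and Ptges lie farthest to the right in both panels.

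Likeness of pattern was measured over the 3 libraries as the larger of the 2 differences in log2 ratio to the untreated library, so a smaller value is more alike, and it is a description only. The library of untreated cells is shared by both ratios. Among 9886 other named protein-coding genes that reached 5 CPM, Ffar2 was nearest to Fbln1 (0.16) and Sap25 (0.29), and Ffar4 to Ptgs1 (0.17) and Clec10a (0.18). Hcar2 was nearest to Ccl3 (0.04) and Ldha (0.08), and Gpr35 to Tmem51 (0.04) and Ankrd50 (0.04). Ptger2 was nearest to Htra1 (0.01) and Zfyve21 (0.02), Ptger4 to Zmym3 (0.01) and Sec11c (0.01), Gpr183 to Pigx (0.01) and Myo6 (0.01), and Gpr84 to Slc35d2 (0.03) and Rassf8 (0.04). The number of genes within 0.25 was 1 for Ffar2, 2 for Ffar4, 19 for Hcar2 and 29 for Gpr35. It was 151 for Gpr183, 216 for Gpr84, 273 for Ptger2 and 536 for Ptger4, whose patterns many genes had. Of the other receptors in the lists, the nearest to Gpr84 was C5ar1 (0.15), to Gpr183 Cnr2 (0.23), to Ptger4 S1pr1 (0.30), to Ptger2 Gpr65 (0.34), to Gpr35 S1pr3 (0.68), to Hcar2 Fpr1 (0.72), to Ffar4 Lpar3 (0.73) and to Ffar2 Cysltr1 (3.17).

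Sucnr1 and Gpbar1 were too low to judge. Sucnr1 (ENSMUSG00000027762.6, chromosome 3, 60081869 to 60087566, plus strand) had 1 count untreated, 3 with P. vulgatus and 2 with YB328. Gpbar1 (ENSMUSG00000064272.3, chromosome 1, 74278550 to 74279624, plus strand) had 1 count in each. None of these is above 3 counts, the floor used here (0.194, 0.113 and 0.110 CPM in the order of the groups above), so no ratio is given. A difference in these receptors was not detectable at this depth.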

How the data were processed

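RNA of 3 cultures was sequenced, 1 library per group. Per the labels' protocols, the kits were RNeasy Micro for RNA extraction, and libraries were made with SMART-Seq v4 and Nextera XT, which do not mark strand. The tool DRAGEN and the build GRCm38 are named, per the submitters' processing notes. Version, annotation and counting step were not given in the sources used here. Of the values the authors deposited, the counts are estimated counts (8.86% to 9.99% of all genes listed had a value that was not whole), and the deposited TPM is a level per gene length within each library. All 10 receptors had the same coordinates in GENCODE M21. Here size factors came from TMM (edgeR 4.0.16, R 4.3.3), no edgeR test was run, and CPM, log2 ratios after adding 0.5 CPM and exact 95% Clopper-Pearson intervals on rounded counts were computed in Python 3.11.15 (scipy 1.17.1). The rule of size is given with the results, and every gene of the table went through it. The 10 receptors, the 8 pathway lists and 8 marker lists were chosen with earlier results of these data known. All 10 receptors are named, with up to 4 genes per pathway list, those with the largest ratios among genes that passed against untreated, and the nearest genes by pattern. List genes beyond these, and markers, were named after their values were seen. The rule was tested on simulated data with counting noise alone, so that test does not cover differences between cultures. Alternatives were total counts, median-of-ratios factors (DESeq2 1.42.0), TMM without the 10 most abundant genes, nuclear protein-coding genes alone, TPM, other minima and added CPM, and thinning, with 2 more chosen after seeing the data.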

Additional observations from a re-analysis of the deposited data

How the results depend on the processing

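Of 360 values of the 10 receptors under 12 alternatives, 344 were the same, 5 passed under the alternative alone and 1 no longer passed. A value was the same if it passed again, or if, not passing in either, it stayed in its counting interval or all but unchanged. The other 10 passed in neither and moved outside the counting interval. Part of the 344 could hardly have come out otherwise, so this count is not a measure of robustness. Sucnr1 and Gpbar1 rest on 1 to 3 counts, with wide intervals. Another minimum leaves each log2 ratio as it was and can change only whether a receptor passed. Adding opposite-strand genes changes Gpr84, Ptger2 and Ptger4 alone. No receptor that rose or fell changed direction. Ffar2, Ffar4 and Gpr35 passed in both comparisons with the untreated library under all 12, as Hcar2 did with P. vulgatus against untreated and against YB328. Between YB328 and P. vulgatus the number of receptors that passed moved from 1 to 2, by Ffar4, with no minimum CPM and with 5 CPM asked of any of the 3 libraries. Fewer genes are kept out by construction under both. With the deposited TPM, 6 receptors passed against untreated with each bacterium in place of 4 (YB328) and 5 (P. vulgatus), by Ptger4 and, with YB328, Hcar2. With TPM the share of higher calls over all genes moved from 56.3% to 74.5% for YB328 and from 56.2% to 69.7% for P. vulgatus. The cause was not tested. With opposite-strand genes added, Ptger2 had a log2 ratio of 0.90 with YB328 and 3 receptors passed. Over all genes, removing the minimum CPM gave 3652 higher and 3595 lower for YB328 against untreated (2544 and 1972 with it), 3805 and 3666 for P. vulgatus (2593 and 2022), and 780 and 765 for YB328 against P. vulgatus (282 and 263). With 20 CPM asked these were 1812 and 988, 1839 and 1048, and 112 and 111, and with TPM 3353 and 1147, 3055 and 1328, and 296 and 194. No paired analysis was possible because each group has 1 library, and no library could be left out. Counting depth limits Sucnr1 and Gpbar1 in all libraries, Ffar2 with either bacterium, and Ffar4 with P. vulgatus (17 counts).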
